A study of Mus musculus with 6 samples.

Results

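The genes described here are 8 transcription factors of neurogenesis, *Sox2*, *Sox4*, *Sox11*, *Eomes*, *Neurod1*, *Neurod2*, *Prox1* and *Tbr1*, and the microtubule gene *Dcx*. They were chosen by name, with earlier results of these data known. Each symbol was found once in the gene list of both preparations, so that they are 9 of 31053 listed genes in the cortical data and 9 of 27998 in the hippocampal data. Single-cell RNA sequencing (scRNA-seq) counts of 2 preparations were analysed. Both used female C57Bl/6J mice. Prep 1 was made from the cerebral cortex of 3 animals at an age of 3 weeks, and prep 3 from the hippocampus of 3 animals at an age of 5 weeks. All mice were untreated and perfused with cold buffered saline, and the tissue was digested with dispase II, papain and DNase I and cleared of myelin without a sort for any cell type. The cells of all 3 mice of a preparation were joined before loading, and 3 technical replicates, called libraries below, were made from that 1 suspension. There is therefore 1 biological sample per preparation, the cells cannot be assigned to a mouse, and no p-value was computed. The spread between libraries and all intervals cover technical and counting error only.

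New neurons are added to the dentate gyrus of the hippocampus throughout young life. Neural stem cells there share many genes with astrocytes, and they give rise to dividing intermediate progenitors, which turn into immature granule neurons. These stages follow each other with a partly overlapping series of transcription factors. *Sox2* is a factor of stem cells and glia, *Eomes* (also called *Tbr2*) marks intermediate progenitors, *Neurod1* and *Neurod2* are basic helix-loop-helix (bHLH) factors of neuronal differentiation, and *Prox1* is a homeobox factor of dentate granule neurons. *Sox4* and *Sox11* belong to the SoxC group and act in newly formed neurons. *Tbr1* is a T-box factor of glutamatergic neurons. *Dcx* (doublecortin) binds microtubules in migrating and immature neurons and is a common marker of young neurons. A separate stream of young GABAergic neurons, marked by the *Dlx* homeobox genes, leaves the subventricular zone for the olfactory bulb.

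The libraries held 39662203 to 50024850 unique molecular identifiers (UMIs, each standing for 1 RNA molecule) in 4894 to 6121 barcodes. After the filters 13320 cortical and 14210 hippocampal cells were kept, with a median of 5800 to 6914 UMIs per cell and library. Of the kept hippocampal cells 749 (5.27%) carried a barcode that also occurred in another library of the preparation, against 71 (0.533%) in the cortex, and 69 barcodes occurred in both preparations. The hippocampal classes turned to most held few of them, with 2 cells among the immature neuron-like, none among the cycling and mature neuron-like, 9 among the astrocyte-like and 6 among the cells like oligodendrocyte precursor cells (OPCs). Levels are given as CPM, the UMIs of a gene summed over all cells of a class, divided by all UMIs of those cells and multiplied by 1000000. They were compared for 1 gene between classes, not between genes.

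Classes were named from marker genes, and the 9 genes were kept out of both the markers and the clustering. In the hippocampus 213 cells were immature neuron-like (64, 84 and 65 in the 3 libraries), 173 were cycling immature neuron-like (53, 67 and 53), 88 were mature neuron-like (31, 29 and 28), 2000 were astrocyte-like and 252 were OPC-like. Called doublets made up 2.35% of the immature and 2.31% of the cycling class. Nearly all of the immature class came from 2 clusters. The larger one, with 162 cells, was led by *Calb2* and carried 15 of 15 immature neuron markers. The other, with 50 cells, was led by *Dlx6os1* and carried 10 of 10 markers of GABAergic neuroblasts. The cycling class joined a *Top2a*-led cluster of 54 cells, which had 15 of 15 cycling markers, and a *Tac2*-led cluster of 119 cells, which had only 3 of them together with all 15 immature markers. The proliferation gene *Mki67* stood at 849 CPM in the *Top2a*-led and at 43.0 CPM in the *Tac2*-led cluster, so the word cycling fits the larger cluster poorly. Most OPC-like cells came from a *Tnr*-led cluster of 178 cells, which carried 9 OPC and 6 oligodendrocyte markers. The others came from a *Pdgfra*-led cluster of 76 cells, which carried 12 OPC markers and 1 oligodendrocyte marker. The OPC-like class below thus consists mostly of *Tnr*-led cells. Since the classes were drawn from other genes of the same cells, the differences between them describe the classes and were not tested.

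The label of the mature neurons was borne out by only a part of its markers. No cluster was named mature neuron-like, and the 88 cells were picked one by one by their marker UMIs. Of these 81 came from a *Reln*-led cluster of 83 cells, which carried 10 immature and 8 mature markers and was itself named immature neuron-like. Its leading genes included *Reln* at 2393 CPM, *Lhx1* at 556 CPM and *Slc17a6* at 505 CPM, and also *Snhg11* and *Meg3* of the mature list. By contrast, *Rbfox3*, a common marker of mature neurons, was at 0 UMIs. *Slc17a7*, the transporter of cortical and hippocampal glutamatergic neurons, was at 3 UMIs. *Rbfox3* was, however, also a leading gene of the *Tac2*-led cluster of the cycling class. Cells with the markers of mature granule or pyramidal neurons formed no cluster, and the values of the mature class below are mostly those of *Reln*-led cells. Only 2 cortical cells met the same rule, so no level is given for them.

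**Figure D1:**
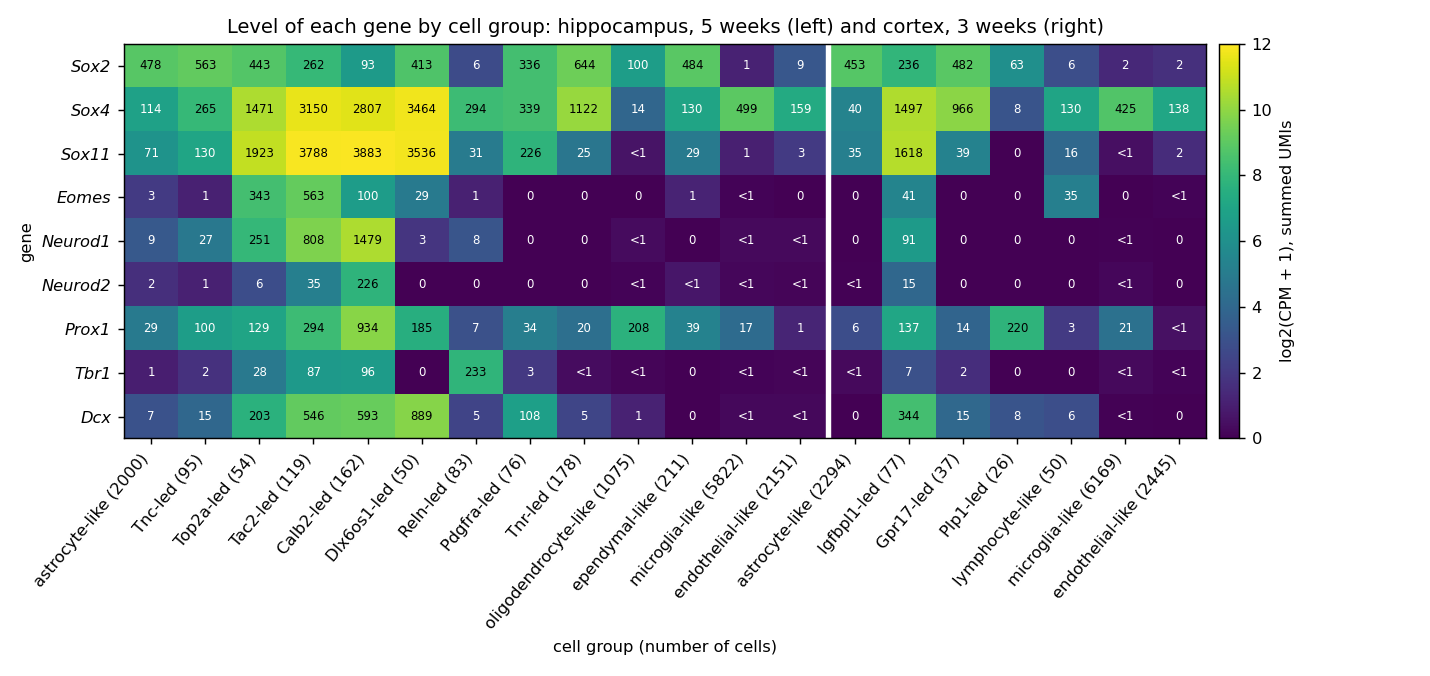
Level of each of the 9 genes in the cell groups of the hippocampus at 5 weeks (left of the white line) and the cortex at 3 weeks (right). Rows are genes and columns are cell groups with their number of cells. Printed numbers are CPM of summed UMIs, and the colour shows log2(CPM + 1). *Dcx*, *Neurod1* and *Sox11* are high in the *Calb2*-led and *Tac2*-led hippocampal clusters, *Sox2* is high in the astrocyte-like and OPC-like groups, and *Prox1* is also seen in oligodendrocyte-like cells (208 CPM).

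*Sox2* was highest in glia. In the 3 hippocampal libraries its level was 485, 454 and 495 CPM in astrocyte-like cells and 624, 536 and 631 CPM in OPC-like cells. In immature neuron-like cells it was 188, 134 and 168 CPM, below every library of both glial classes. The cycling class lay between, with 337, 304 and 370 CPM. *Sox2* was thus 2.99-fold higher in astrocyte-like than in immature neuron-like cells (2.66 to 3.37, a 95% exact interval for counting error, as are the ranges after the folds below) and 3.71-fold higher in OPC-like cells (3.28 to 4.20). Ependymal-like cells had 484 CPM, and their libraries overlapped with those of the astrocyte-like cells. In the *Reln*-led cells *Sox2* was nearly undetected, with 5 UMIs in 83 cells. The immature class was not uniform, since the *Dlx6os1*-led cluster held 546, 342 and 395 CPM and the *Calb2*-led cluster only 106, 74.7 and 104 CPM. Of all hippocampal *Sox2* UMIs 49.3% came from astrocyte-like, 17.5% from oligodendrocyte-like and 16.8% from OPC-like cells.

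The SoxC genes *Sox4* and *Sox11* were highest in immature neuron-like cells. *Sox11* stood at 4109, 3728 and 3657 CPM in that class and at 3001, 3241 and 2825 CPM in the cycling class, and all other hippocampal classes were at or below 71.2 CPM. *Sox4* stood at 2816, 3025 and 2989 CPM in the immature and at 2422, 2540 and 2459 CPM in the cycling class. *Sox4* was also high in OPC-like cells (1028, 945 and 1008 CPM) and in microglia-like cells (518, 499 and 478 CPM). For *Sox4* these classes did not overlap with each other or with the neuronal ones. *Sox11* was far lower in both, with 60.1 CPM in OPC-like cells (a UMI in 100 of 252 cells) and 1.11 CPM in microglia-like cells. Because microglia-like cells were so many (5822), they held 48.5% of all hippocampal *Sox4* UMIs, whereas of the *Sox11* UMIs 43.8% came from the immature and 47.2% from the cycling class. The ratio of immature neuron-like to OPC-like cells was 2.98-fold for *Sox4* (2.86 to 3.11) and 63.6-fold for *Sox11* (55.7 to 72.9). The OPC-like class was mostly *Tnr*-led cells, and *Sox11* was higher in its *Pdgfra*-led cluster, whose value is given below with *Dcx*. *Sox4* and *Sox11* did not differ between the *Calb2*-led and *Dlx6os1*-led clusters in the way *Sox2* did, since *Sox11* was 3883 against 3536 CPM and *Sox4* 2807 against 3464 CPM.

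*Eomes* separated the cycling from the immature class most clearly among the genes that were higher in the former. Its level was 468, 442 and 526 CPM in the cycling class and 67.4, 99.4 and 84.2 CPM in the immature class, a 5.57-fold difference (4.71 to 6.62). The libraries of the classes did not overlap. Of the 1401 hippocampal *Eomes* UMIs 84.1% came from the cycling and 11.1% from the immature class. Within the cycling class the *Tac2*-led cluster had 598, 487 and 626 CPM and the *Top2a*-led cluster, in which cycling markers were strongest, had 295, 377 and 354 CPM. *Eomes* therefore peaked in the cluster with few cycling markers, and the difference between the cycling and immature classes rested on which of them the *Tac2*-led cluster was counted with. With that cluster moved to the immature class, an alternative chosen after the data were seen, the log2 ratio fell from 2.41 to 0.19. No *Eomes* UMI was found in 252 OPC-like cells, which allows a share of up to 1.19% of cells with a UMI. This limit, and those given below for genes without a UMI, is 3 divided by the number of cells, a rough rule and not an exact interval.

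*Neurod1* and *Neurod2* were both highest in immature neuron-like cells, but they differed in the cycling class. *Neurod1* had 1237, 1175 and 1116 CPM in the immature and 511, 663 and 562 CPM in the cycling class. *Neurod2* had 182, 184 and 165 CPM in the immature class, where the libraries were nearly equal, and 17.0, 40.2 and 8.08 CPM in the cycling class. The immature class was 2.01-fold higher for *Neurod1* (1.88 to 2.15) and 7.60-fold higher for *Neurod2* (5.73 to 10.2). For *Neurod1* this lay right at the 2-fold limit used below, with an SD of the log2 ratio of 0.23 over the 3 libraries. Along the *Top2a*-led, *Tac2*-led and *Calb2*-led clusters *Neurod1* stood at 251, 808 and 1479 CPM and *Neurod2* at 6.06, 35.0 and 226 CPM, with no overlap between the libraries of these clusters for either gene. In the *Dlx6os1*-led cluster, by contrast, there was 1 UMI of *Neurod1* and none of *Neurod2* in 50 cells. Neither gene had a UMI in OPC-like cells. Against a floor of 3 UMIs over that class, *Neurod1* was at least 1488-fold and *Neurod2* at least 225-fold higher in immature neuron-like cells.

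*Prox1* was found in neuronal and in glial classes. In the immature class it stood at 694, 780 and 852 CPM and in the cycling class at 226, 224 and 236 CPM, so that the immature class was 3.40-fold higher (3.08 to 3.75). The *Calb2*-led cluster held 828, 962 and 1007 CPM and the *Dlx6os1*-led cluster 127, 210 and 202 CPM. Oligodendrocyte-like cells, the myelinating glia, had 201, 219 and 206 CPM, close to but below the cycling class in every library. Since there were 1075 of them and their median depth was 21259 UMIs, they gave 59.7% of all hippocampal *Prox1* UMIs, against 17.3% from the immature class. Astrocyte-like cells had 28.0, 32.5 and 27.9 CPM, OPC-like cells 19.5, 27.2 and 15.9 CPM and microglia-like cells 17.2, 17.7 and 16.1 CPM. The levels of astrocyte-like cells did not overlap with those of microglia-like cells but overlapped with those of the next class in order. Without the *Tnc*-led and *Cenpa*-led clusters, an alternative chosen after the data were seen, they were 16.7, 16.8 and 17.6 CPM and overlapped with the microglia-like cells.

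*Neurod2* and *Prox1* were the only members whose promoters held the E-box CAGATGG, a sequence of the kind that bHLH factors of the *Neurod* family bind. The search covered both strands (CAGATGG or CCATCTG) of 300 bases around the start of each RefSeq promoter, and all 9 genes were matched with 11 promoters. The motif was found in 2 of these 11 and in 1742 of all 32851 promoters of that length (5.30%). The shorter E-box CAGATG was also in 2 of the 11, and in 17.2% of all promoters. The other promoter of *Prox1*, at chr1:190169516-190169765, had no match. *Neurod2* and *Prox1* are shown because only they held CAGATGG. Both were also called lower in the cycling than in the immature class, and a link between the match and these levels was not tested. The 250 bases before the start of the promoter with the match are given, with CAGATGG in capitals (GRCm38.p6, minus strand of the chromosome, 5′ to 3′). In *Neurod2*, at chr11:98329646-98329895, the first base of the motif lies 118 bases before the start, and in *Prox1*, at chr1:190170828-190171077, it lies 179 bases before it. *Neurod1*, which was also lower there, has no match in its promoter window, and a match is a description of the letters, not a measured binding site.
Neurod2: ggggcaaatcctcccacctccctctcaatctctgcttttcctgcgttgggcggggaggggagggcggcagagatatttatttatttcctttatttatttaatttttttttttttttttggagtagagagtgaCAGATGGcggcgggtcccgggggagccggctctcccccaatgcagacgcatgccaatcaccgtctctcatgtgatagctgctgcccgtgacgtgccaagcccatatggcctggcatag
Prox1: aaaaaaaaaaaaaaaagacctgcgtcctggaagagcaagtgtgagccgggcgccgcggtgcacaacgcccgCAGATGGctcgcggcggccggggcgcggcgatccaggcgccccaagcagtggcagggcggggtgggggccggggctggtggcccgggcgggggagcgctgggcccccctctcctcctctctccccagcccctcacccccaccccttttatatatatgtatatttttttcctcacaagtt

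*Tbr1* was the only one of the 9 genes that was highest in the mature class. Its level there was 271, 243 and 169 CPM, against 96.5, 74.2 and 57.4 CPM in the immature and 57.5, 69.1 and 63.3 CPM in the cycling class. The immature and cycling classes overlapped, and the mature class was 3.02-fold higher than the immature one (2.43 to 3.77). In the *Reln*-led cluster 81.9% of cells had a *Tbr1* UMI, and 39.2% of all hippocampal *Tbr1* UMIs came from the mature class. Within the immature class *Tbr1* was found in the *Calb2*-led cluster (95.6 CPM) and at 0 UMIs in the 50 cells of the *Dlx6os1*-led cluster, which allows a share of up to 6.00%. Cells were also classed one by one, without clusters, by the list with the largest share of its markers detected. The log2 ratio of *Tbr1* between the immature and mature classes then changed from -1.53 to 0.67. With an SD of 2.66 over the 3 libraries, the direction of that last value was not settled.

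*Dcx* was highest in the immature class, with 705, 601 and 681 CPM, followed by the cycling class with 423, 458 and 330 CPM. No other hippocampal class exceeded 22.1 CPM, and of the 2442 hippocampal *Dcx* UMIs 49.0% came from the immature and 41.5% from the cycling class. Against astrocyte-like cells (4.95, 10.3 and 5.75 CPM) the immature class was 93.4-fold higher (75.9 to 116). Of the clusters, the *Dlx6os1*-led one had the highest level with 906, 779 and 1039 CPM, above every library of the *Calb2*-led cluster (661, 563 and 564 CPM). *Dcx* was thus shared by the *Dlx*-expressing and the *Neurod1*-expressing cells. It was also present in the *Pdgfra*-led OPC-like cluster of 76 cells, where 43 cells (56.6%) had a UMI and the level was 54.0, 118 and 119 CPM, whereas the *Tnr*-led OPC-like cluster was at 4.77 CPM. The *Pdgfra*-led cluster carried 12 of 12 OPC markers and besides them 6 immature and 6 mature neuron markers, and 3.95% of its cells were called doublets. *Sox11* was at 226 CPM in it, whereas *Neurod1*, *Neurod2* and *Eomes* had no UMI. The part of these other markers in the *Dcx* level was not tested.

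**Figure D2:**
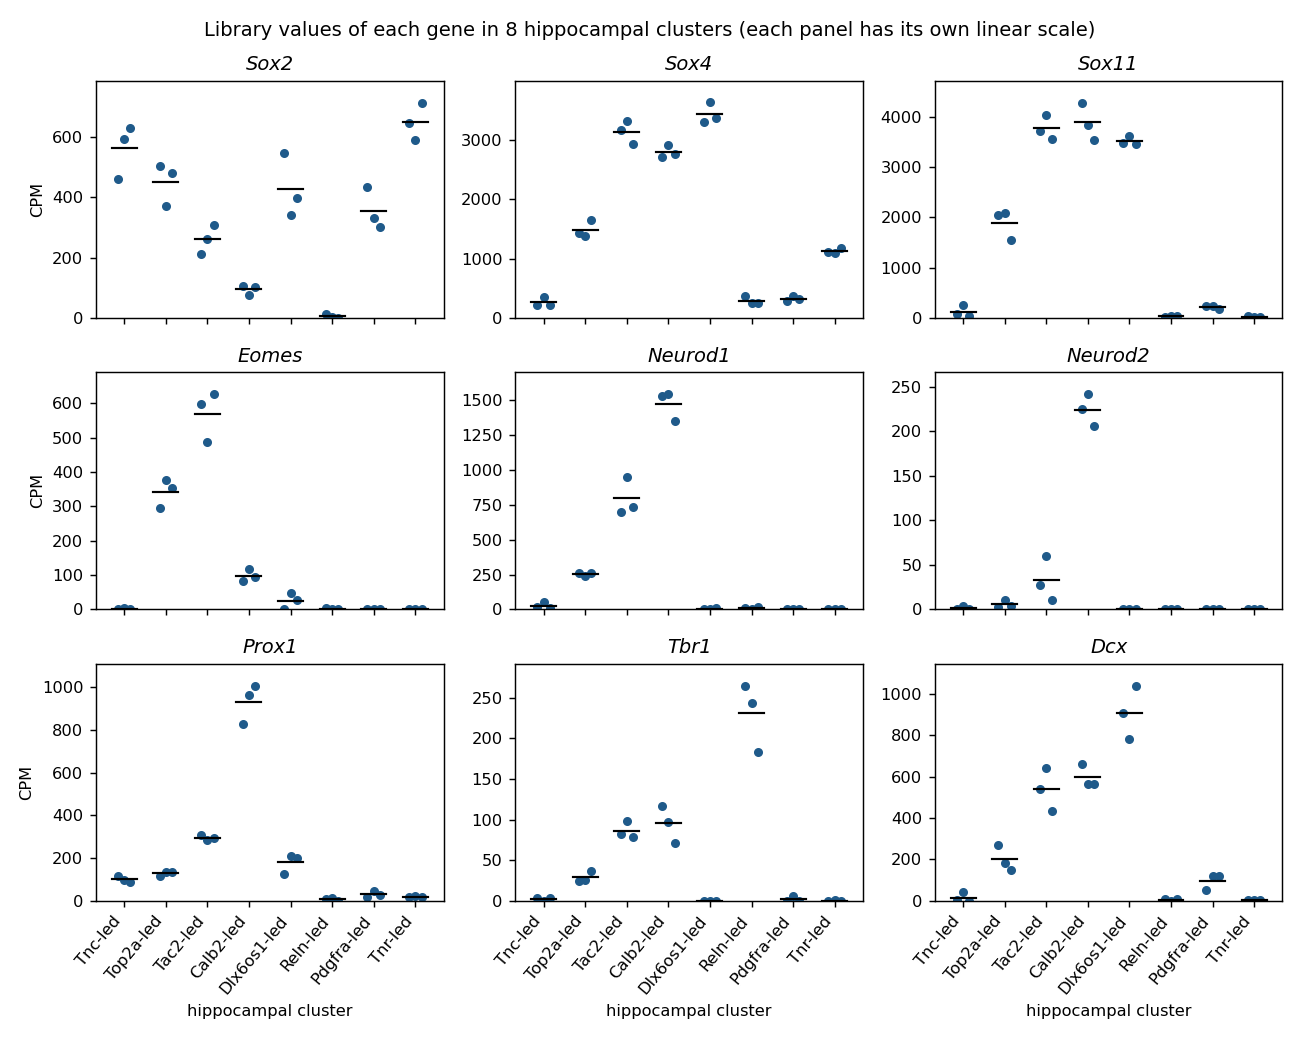
CPM of each gene (one panel per gene, each with its own linear scale from 0) in 8 hippocampal clusters. Points are the 3 technical libraries and horizontal lines their mean. The *Neurod1* points are lowest in the *Top2a*-led, higher in the *Tac2*-led and highest in the *Calb2*-led cluster and lie near 0 in the *Dlx6os1*-led cluster, where those of *Dcx* are highest.

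Shares of cells with a UMI depend on depth, and the median depth was 9032 UMIs in the immature, 14039 in the cycling, 10380 in the mature, 6733 in the astrocyte-like, 14396 in the OPC-like and 6644 in the microglia-like class. Cells were therefore also thinned to 1000 UMIs, which left out 136 astrocyte-like, 17 OPC-like and 5 microglia-like cells and none of the neuronal classes. At that depth *Sox11* was found in 94.3% and *Sox4* in 89.7% of immature neuron-like cells (98.6% each without thinning). *Neurod1* was found in 53.6% (74.2% without thinning), *Prox1* in 46.1% (87.3%) and *Dcx* in 45.9% (92.5%). *Sox2* was found in 14.7% (55.9%), *Neurod2* in 13.8% (54.0%), *Eomes* in 7.03% (35.2%) and *Tbr1* in 6.81% (35.7%). *Eomes* was the gene that gained most in the cycling class, with 34.5% of cells (84.4% without thinning). Microglia-like cells, which should lack neuronal genes, served as a rough guide to free RNA, whose level was not measured. There *Dcx* and *Neurod1* were each found in 0.02% of thinned cells (0.14% and 0.15% without thinning) and *Eomes* in 0.01% (0.07%). *Sox4* in microglia-like cells, at 31.6% (76.9% without thinning), and *Prox1*, at 1.69% (9.95%), were above the shares of *Dcx*, *Neurod1* and *Eomes*. Those shares do not set a background for other genes. For *Prox1* the thinned share of astrocyte-like cells (2.30%) and OPC-like cells (2.29%) lay close to that of microglia-like cells.

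**Figure D3:**
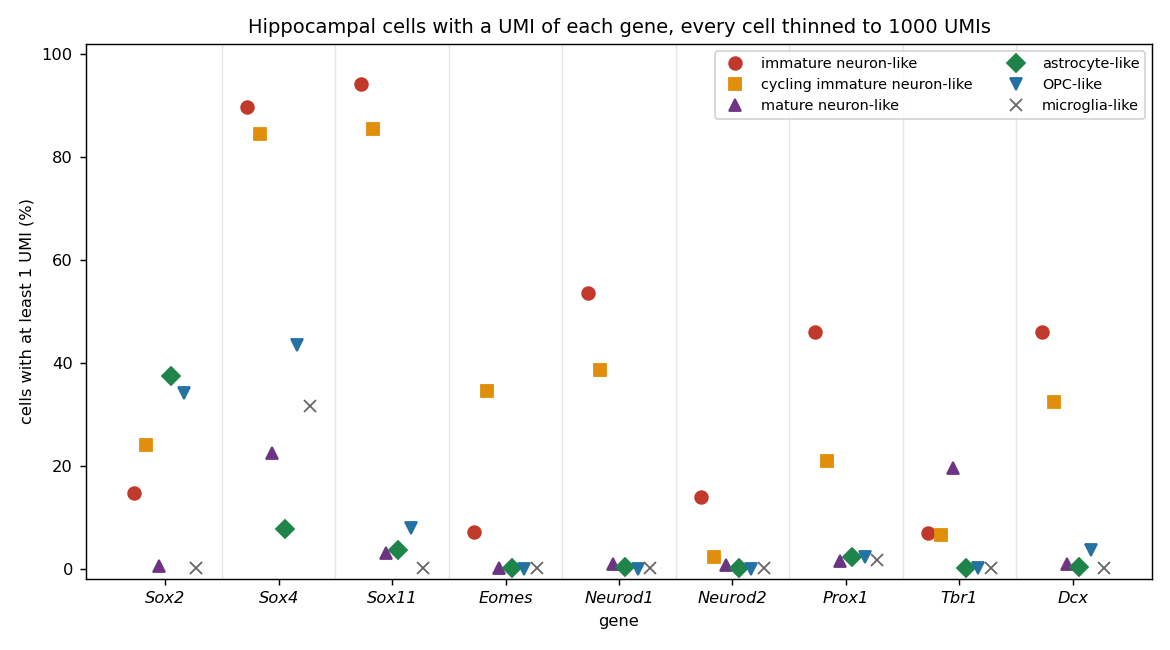
Share of hippocampal cells with at least 1 UMI of each gene after every cell was thinned to 1000 UMIs. Symbols are 6 cell classes. *Sox4* is found in 31.6% of microglia-like cells, whereas the crosses of the other genes lie below 2%.

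Between immature neuron-like and astrocyte-like cells, 8 of the 9 genes were higher in the former and *Sox2* was lower. A gene was called when the classes differed at least 2-fold with 5 CPM added to both and the 3 libraries of one class lay apart from those of the other. Of all 14185 genes tested 18.1% were called higher and 14.4% lower. The median log2 ratio of the 9 genes was 4.63, against 0.13 over all genes tested. *Neurod1* differed most, with a log2 ratio of 6.38 ± 0.42, and *Eomes* least of the 8, with 3.48 ± 0.03. For several genes the level in astrocyte-like cells moved with doublets. The *Cenpa*-led cluster among them, of which 75.5% of cells were called doublets, held 60.7 CPM of *Dcx* and 78.1 CPM of *Neurod1*. Without called doublets *Dcx* in astrocyte-like cells went from 7.02 to 2.65 CPM and *Neurod1* from 9.19 to 3.74 CPM, which makes the ratios larger.

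Against OPC-like cells, in a comparison that shares the immature class with the one above, 8 genes were again higher and *Sox2* was lower (13.2% of 12372 genes tested were called higher and 14.4% lower). Of the 8, *Eomes*, *Neurod1*, *Neurod2* and *Tbr1* passed the filter of 10 UMIs only through the immature class, so their direction was fixed. *Sox4* gave the smallest of the positive log2 ratios, 1.57 ± 0.11. *Sox11* (5.88 ± 0.28), *Prox1* (4.89 ± 0.39) and *Dcx* (4.60 ± 0.81) were further apart, and *Tbr1* rests on 3 UMIs in OPC-like cells (96.3-fold, 32.3 to 472). The median of the 9 genes was 4.60, or 4.89 with the genes at 0 set to their bound, against 0.04 over all genes tested. Against the mature class 8 genes were higher and *Tbr1* was lower, where 10.7% of 11467 genes tested were called higher and 12.4% lower. Of the 8, *Sox2*, *Eomes*, *Neurod1*, *Neurod2* and *Dcx* had under 10 UMIs in the mature class and passed the filter only through the immature class, which fixed their direction. *Sox11* (122-fold, 85.0 to 183), *Prox1* (31.2-fold, 20.7 to 49.4) and *Sox4* (log2 ratio 3.37 ± 0.37) passed in both. *Neurod1* rests on 9 UMIs in the mature class (121-fold, 63.7 to 265) and *Eomes* on 1 (79.2-fold, 14.0 to 3146). With classes from the markers detected in single cells 6 genes were called higher and none lower. *Prox1* (log2 ratio 0.80 ± 3.17), *Neurod2* (0.44 ± 3.55) and *Tbr1* (0.67 ± 2.66) lost their calls, each with an SD larger than its ratio. The median of the 9 genes was 4.30, against 0.01 over all genes tested.

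From the immature to the cycling class the picture was mixed. *Eomes* (log2 ratio 2.41 ± 0.32) and *Sox2* (1.04 ± 0.18) were called higher in the cycling class, and *Prox1* (-1.74 ± 0.12), *Neurod2* (-2.69 ± 0.82) and *Neurod1*, at the 2-fold limit, were called lower. *Neurod1* lost its call without called doublets (-0.99), with a mean over cells (-0.75), without mitochondrial and ribosomal protein genes (-0.96) and without hippocampal library 1 (-0.89). Of 11907 genes tested 6.35% were called higher and 5.06% lower. *Dcx* (-0.67 ± 0.32), *Sox11* (-0.33 ± 0.13), *Sox4* (-0.25 ± 0.03) and *Tbr1* (-0.24 ± 0.43) were not called. The median of the 9 genes was -0.33, against 0.00 over all genes tested. The count of genes higher in the cycling class was 2 in the main setting, 1 without hippocampal library 2, where *Sox2* reached 0.97, and 0 when the 9 genes were kept in the clustering. The count of genes called lower went from 3 to 7 in that last setting, with *Dcx* at -1.78, *Tbr1* at -1.57, *Sox4* at -1.26 and *Sox11* at -1.23. It was 6 when the *Tac2*-led cluster was counted as immature neuron-like, with *Dcx* at -1.56, *Tbr1* at -1.37 and *Sox4* at -1.04.

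**Figure D4:**
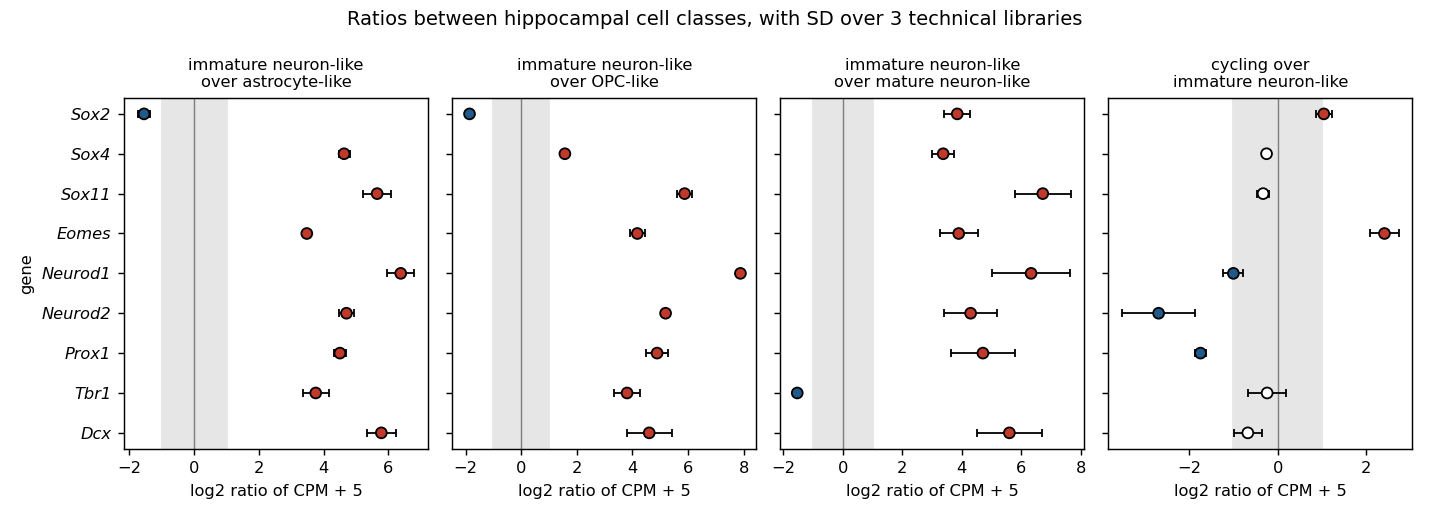
Log2 ratio of CPM + 5 between hippocampal cell classes for each gene in 4 comparisons, with the SD over 3 technical libraries as bars. Red points were called higher, blue points lower and open points were not called, and the grey band marks ratios under 2-fold. *Sox2* lies left of the band in the comparisons with astrocyte-like and OPC-like cells, and *Tbr1* in the one with mature neuron-like cells.

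Other genes of the same families were set beside the 9. Of the 3 SoxB1 and SoxC relatives *Sox12* was called higher in immature neuron-like than in astrocyte-like cells (log2 ratio 1.29), *Sox3* was called lower (-1.07) and *Sox1* was at -0.72. None of the 6 other Sox genes was higher and 4 were lower, led by *Sox21* (-3.35), *Sox8* (-3.13) and the glial factor *Sox9* (-2.74). Of the 16 bHLH genes tested 6 were higher and 7 lower, with *Bhlhe22* (5.76) and *Nhlh2* (4.55) on one side and the Notch target *Hes5* (-4.96) and *Id3* (-3.80), an inhibitor of bHLH factors, on the other. In the doublecortin family and its microtubule partners 8 of 11 were higher and 1 lower, and the neuronal tubulin *Tubb3* (6.42) and the stathmins *Stmn2* (6.28) and *Stmn1* (5.00) led. Of 28 other transcription factors of forebrain neurogenesis 16 were higher and 4 lower. *Hopx*, a gene of quiescent stem cells and astrocytes, was at -4.89, and *Sp9* (4.77), *Dlx1* (4.71) and *Bcl11a* (4.47) were at the other end. The median log2 ratio was -0.72 for the SoxB1 and SoxC relatives, -2.11 for the other Sox genes, -0.32 for the bHLH genes, 1.70 for the doublecortin list and 2.07 for the other transcription factors. The only T-box or Prox relative tested was not called.

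The same lists differed otherwise between the cycling and immature classes. Of the 15 bHLH genes tested 4 were called higher in the cycling class and 5 lower. *Neurog2* (log2 ratio 4.19), a proneural gene of progenitors, and *Neurod4* (3.25) were among the former and *Bhlhe22* (-2.75) among the latter. *Sox3* (1.55), *Sox1* (1.39), *Sox8* (2.39) and *Sox21* (1.99) were called higher, beside *Sox2*. Of 10 doublecortin family genes and microtubule partners none was higher and 2 were lower, *Stmn2* (-2.57) and *Mapt* (-1.40). Of 29 other transcription factors 4 were higher and 7 lower, and the 4 with the largest ratios were factors of GABAergic neuroblasts, *Sp9* (-4.08), *Sp8* (-3.45), *Dlx5* (-3.44) and *Dlx2* (-2.57). The immature class held the *Dlx6os1*-led cluster of 50 cells, which carried 10 GABAergic neuroblast markers, these 4 among them. Only 6 of 173 cycling cells had a *Dlx* UMI, so these ratios depend on that cluster being counted in the immature class. In the comparison with OPC-like cells 8 of 15 bHLH genes and 21 of 28 other transcription factors were higher in the immature class. The oligodendrocyte lineage genes *Sox10* (-6.59) and *Sox8* (-5.20) were lower in immature neuron-like cells, and *Stmn2* was at 7.89. In the comparison with the mature class 6 of 14 bHLH genes were higher and 3 lower, and 18 of 26 other transcription factors were higher and none lower. *Nhlh2* was at -2.16.

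By their *Dlx* UMIs the immature neuron-like cells were of 2 kinds. A UMI of a *Dlx* gene was found in 50 of the 213 cells (23.5%). These were the 50 cells of the *Dlx6os1*-led cluster, so the counts below describe the split between the clusters again. Of these 50 cells 48 (96.0%) had a *Dcx* UMI and 46 (92.0%) a *Sox2* UMI, but only 1 had *Neurod1*, 3 had *Eomes*, and none had *Neurod2* or *Tbr1*, which for 0 of 50 allows a share of up to 6.00%. *Prox1* was found in 32 (64.0%). Of the 163 cells without a *Dlx* UMI 157 (96.3%) had *Neurod1*, 154 (94.5%) had *Prox1*, 149 (91.4%) had *Dcx*, 115 (70.6%) had *Neurod2*, 76 (46.6%) had *Tbr1*, 73 (44.8%) had *Sox2* and 72 (44.2%) had *Eomes*. *Sox4* and *Sox11* were found in all 50 *Dlx* cells and in 160 of the other 163. *Dcx*, *Sox4* and *Sox11* were common to both kinds. In the cycling class only 6 of 173 cells had a *Dlx* UMI. The *Dlx* genes were markers of a naming list, so the split itself was used in naming the clusters.

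Most of the immature neuron-like cells carried many of the genes at once. The median was 7 of the 9 genes per cell, with a range of 1 to 9, and 183 cells (85.9%) had at least 5 of them. The median was 7 in the *Calb2*-led cluster, 5 in the *Dlx6os1*-led cluster, 7 in the cycling class, 2 in the mature class and 1 in microglia-like cells, where *Sox4* gave most of it. Of the 197 immature neuron-like cells with *Dcx*, all had *Sox11*, 196 had *Sox4*, 174 (88.3%) had *Prox1*, 149 (75.6%) had *Neurod1*, 115 (58.4%) had *Sox2*, 111 (56.3%) had *Neurod2*, 73 (37.1%) had *Eomes* and 72 (36.5%) had *Tbr1*. In the 148 cycling cells with *Dcx*, *Eomes* was found in 132 (89.2%), *Neurod1* in 118 (79.7%) and *Neurod2* in 23 (15.5%). These counts and shares are without thinning, and the median depth was 14039 UMIs in the cycling and 9032 in the immature class. At 1000 UMIs *Neurod1* was found in 38.6% of all cycling and 53.6% of all immature neuron-like cells. Over the whole immature class the unthinned shares were close to those of its *Dcx* cells, with 87.3% for *Prox1* and 74.2% for *Neurod1*.

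Co-detection was measured as the number of cells with both genes over the number that the product of the shares of the genes would give, after thinning. In the immature class 30 of 36 pairs had a product of at least 5 cells. None of them reached a ratio of 1.5 and 2 lay below its inverse. The ratio cannot exceed 1 divided by the larger of the 2 shares. Pairs with *Sox4* (89.7% of cells) or *Sox11* (94.3%) could therefore not reach 1.5. *Sox2* and *Neurod1* were found together in 9.51 cells on average where the product gave 16.8 (ratio 0.567, with 0.631, 0.536 and 0.532 in the 3 libraries), and *Sox2* and *Prox1* in 8.75 cells against 14.4 (0.607). Without thinning these ratios were 0.816 and 0.962. They include the differences between the *Calb2*-led and *Dlx6os1*-led clusters of the class. The highest ratios were 1.36 for *Neurod1* with *Tbr1* and 1.34 for *Neurod1* with *Neurod2*. Within the *Calb2*-led cluster alone all ratios lay between 0.861 and 1.13 for the 30 pairs counted. There *Sox2* with *Neurod1* was at 1.03 and *Sox2* with *Prox1* at 0.861. In the cycling class the ratios of 23 pairs lay between 0.720 and 1.41, the highest being that of *Neurod1* with *Dcx*.

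Over all 474 neuron-like cells of the 3 classes, 3 pairs were above 1.5. *Neurod2* and *Prox1* (1.90), *Neurod1* and *Neurod2* (1.83) and *Neurod1* and *Prox1* (1.57) were found together more often than the product, and *Sox2* with *Tbr1* (0.463), *Sox2* with *Neurod2* (0.485) and *Eomes* with *Neurod2* (0.607) less often. These ratios include the differences between the classes. Without thinning 1 pair of the immature class was above 1.5, *Neurod2* with *Tbr1* in 62 cells against a product of 41.0 (1.51). No pair of that class then lay below the inverse of 1.5. Pairs with *Sox4*, *Sox11*, *Dcx*, *Prox1* or *Neurod1*, each found in at least 74.2% of these cells without thinning, could not reach 1.5.

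**Figure D5:**
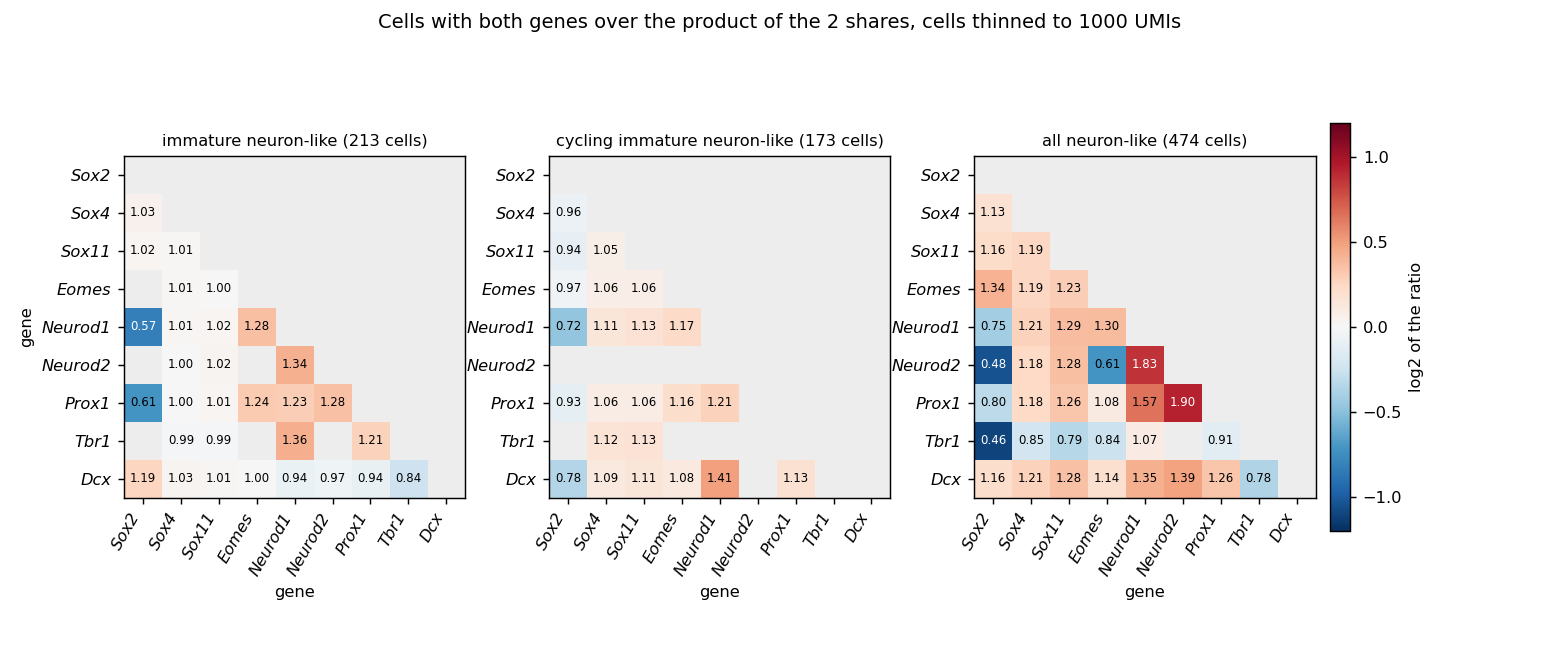
Number of cells with both genes over the product of the shares, for each pair of genes in hippocampal immature, cycling immature and all neuron-like cells thinned to 1000 UMIs. Rows and columns are genes, printed numbers are the ratios, colours their log2, and grey fields are pairs whose product gives fewer than 5 cells. In the immature class *Sox2* with *Neurod1* (0.567, or 0.816 without thinning) and with *Prox1* (0.607, or 0.962) are the lowest. *Neurod2* with *Prox1* (1.90) is the highest among all neuron-like cells.

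A *Tnc*-led cluster of 95 cells stood between astrocytes and progenitors. It carried 8 astrocyte markers and 5 of 10 neural stem cell markers, and *Hopx* (3163 CPM) was among its leading genes, so it was counted with the astrocyte-like cells. *Sox2* was at 460, 593 and 629 CPM there and *Prox1* at 115, 96.6 and 89.3 CPM, above the 29.4 CPM of all astrocyte-like cells. *Prox1* was found in 57.9% of its cells, or 9.03% after thinning against 1.69% in microglia-like cells. *Neurod1* (18.5, 53.3 and 6.87 CPM), *Sox11* (74.2, 260 and 48.1 CPM) and *Dcx* (13 UMIs in 2 cells) were led by library 2, and 6.32% of the cells were called doublets. Of the 9 genes, *Sox2* and *Prox1* were thus the ones found in most of these cells besides *Sox4* (68.4%).

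Cortex and hippocampus differ in region, age, preparation and gene annotation at once, and these cannot be told apart. The headers of the count matrices also name software version 3.0.1 in one preparation and 3.1.0 in the other, whereas the submitters' processing notes name Cell Ranger 5.0.1 for both. In astrocyte-like cells *Sox2* overlapped between the preparations, with 434, 454 and 472 CPM in the cortex and 485, 454 and 495 CPM in the hippocampus (1.06-fold, 1.02 to 1.09). Of the 9 genes 4 were called higher in hippocampal astrocyte-like cells and none lower, where 1.63% of 14569 genes tested were called higher and 1.13% lower (2.77% in either direction). *Prox1* stood at 28.0, 32.5 and 27.9 CPM in the hippocampus and 7.28, 5.47 and 5.68 CPM in the cortex (4.77-fold, 3.83 to 5.99), and *Sox4* was 2.84-fold higher (2.59 to 3.11). *Neurod1* and *Dcx* had no UMI in 2294 cortical astrocyte-like cells and passed the filter only through the hippocampus (at least 50.1-fold and at least 38.3-fold). The classes were not composed alike. In the cortex 60 cycling astrocyte-like cells, 73.3% of them called doublets, formed a separate class with 8 *Dcx* UMIs in 2 cells and no *Neurod1* UMI. The hippocampal *Cenpa*-led cluster, with 75.5% called doublets, was counted as astrocyte-like. Without called doublets 2 of the 4 calls were left, and without the *Tnc*-led and *Cenpa*-led clusters, an alternative chosen after the data were seen, none was, with log2 ratios of 0.98 for *Prox1*, 0.54 for *Sox4*, 0.12 for *Neurod1* and 0.16 for *Dcx*. The median of the 9 genes was 0.92, against 0.09 over all genes tested.

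In OPC-like cells none of the 9 genes was called between the preparations, where 3.5% of 11456 genes tested were called higher and 0.995% lower (4.5% in either direction). Only 5 of them passed the filter. With 37 cortical cells the precision was low. *Sox2* was at 591, 407 and 491 CPM in the cortex and 624, 536 and 631 CPM in the hippocampus (1.23-fold, 1.08 to 1.41), and *Sox4* at 974, 798 and 1140 CPM against 1028, 945 and 1008 CPM (1.02-fold, 0.93 to 1.13). *Sox11* was at 38.7 against 60.1 CPM, and it was called when cortical library 3 was left out, with a log2 ratio of 1.14. The cortical cells came from a *Gpr17*-led cluster, which carried 10 OPC and 8 oligodendrocyte markers. *Gpr17* was also a leading gene of the *Tnr*-led cluster of the hippocampus, whereas a *Pdgfra*-led cluster was found in the hippocampus alone.

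Most cells of the cortical cluster with immature neuron markers carried *Dlx* genes. An *Igfbpl1*-led cluster of 77 cells carried 13 immature neuron, 14 cycling and 9 GABAergic neuroblast markers, and 54 of its cells (70.1%) had a *Dlx* UMI. None of these 54 had *Neurod1*, *Neurod2*, *Eomes* or *Tbr1* (up to 5.56% each), whereas 49 (90.7%) had *Dcx* and 26 (48.1%) had *Prox1*. Among the 23 other cells *Neurod1* was found in 7 (30.4%), *Dcx* in 7 (30.4%), *Sox11* in 12 (52.2%) and *Sox4* in 14 (60.9%). Many of these cells thus lacked genes that nearly all hippocampal immature neuron-like cells had, and whether they were neuronal was not tested. *Sox11* stood at 2175, 2249 and 991 CPM, *Dcx* at 480, 539 and 171 CPM and *Sox2* at 340, 278 and 157 CPM, and library 3 was the lowest for each of them. Oligodendrocyte-like cells of the cortex, although only 26, had a *Prox1* level of 258, 221 and 147 CPM, near that of the hippocampus. In cortical microglia-like cells *Sox4* was at 404, 438 and 432 CPM and *Prox1* at 23.9, 19.7 and 20.9 CPM. *Eomes*, which is also a factor of cytotoxic lymphocytes, gave 11 UMIs in 4 of 50 cortical lymphocyte-like cells, at 46.3, 45.1 and 0 CPM.

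The genes with the most similar pattern over the 13 hippocampal classes were listed for each of the 9, as a description over classes that share libraries, among 15544 genes. Pearson's r of log2(CPM + 5) was 0.989 for *Dcx* with *Sez6*, 0.992 for *Neurod1* with *Draxin* and 0.987 with *Rbfox3*, 0.976 for *Eomes* with *Kif18a*, a mitotic kinesin, and 0.972 for *Eomes* with *Insm1*, a zinc finger factor of progenitors. *Tbr1* was closest to *Dlgap3* (0.989), *Sox11* to *Mex3a* (0.963), *Sox2* to *Nckap5* (0.942) and *Prox1* to *Trim2* (0.941). Among the 9 genes themselves the highest values were those of *Sox11* with *Dcx* (0.966) and *Neurod1* with *Dcx* (0.962), and the lowest was that of *Sox2* with *Tbr1* (0.0913). *Draxin*, *Mex3a*, *Rbfox3* and *Dlx1* were themselves markers used to name the classes, so high values with them were partly built in. A high value over classes does not place genes in the same cells. *Neurod2* was closest to *Dlx1* (0.997), yet *Dlx1* was at 743 CPM in the *Dlx6os1*-led cluster, where *Neurod2* had no UMI, and at 0 in the *Calb2*-led cluster.

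On GRCm38 with GENCODE M21 the genes lie at chr3:34650405-34652461 (*Sox2*, plus strand), chr13:28948919-28953713 (*Sox4*, minus), chr12:27334264-27342574 (*Sox11*, minus), chr9:118478212-118486132 (*Eomes*, plus), chr2:79452521-79456751 (*Neurod1*, minus), chr11:98325415-98329648 (*Neurod2*, minus), chr1:190118035-190170714 (*Prox1*, minus), chr2:61802930-61814114 (*Tbr1*, plus) and chrX:143855842-143933311 (*Dcx*, minus). Some share bases with other genes. *Gm26735* overlaps *Sox4* on the other strand with 2616 exonic bases, had 673 UMIs against 5391 of *Sox4* in the immature class, and was the gene closest to *Sox4* in pattern (0.983). *Prox1os* overlaps *Prox1* on the other strand with 133 exonic bases and had 192 UMIs in immature neuron-like and 1006 in oligodendrocyte-like cells. *Neurod1* lies inside *Cerkl* on the same strand with 201 shared exonic bases, and *Cerkl* had 24 UMIs in the immature class. How the counting assigned reads in these stretches is not given in the sources used here. *Sox2* lies inside an intron of *Sox2ot*, which neither gene list names.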

How the data were processed

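The deposited files hold UMI counts, whole numbers per gene and cell, which the authors made with Cell Ranger (5.0.1 in the submitters' processing notes, reference mm10) from 10x Chromium libraries. The library and sequencing depth is given with the results. Cells with 250 to 6000 genes and at most 25% mitochondrial UMIs were kept, and genes had to be found in 3 cells. Counts were scaled to 10000 per cell, and 2000 variable genes and 30 components were used for clustering at resolution 0.5, or 1.0 for the neural cells (Seurat 5.3.0, R 4.3.3). Clusters were named from marker lists when at least 3 markers were in 20% of cells and 2-fold up. Low-depth clusters stayed unnamed when none of their own markers was among their leading genes. The *Aldoc*-led hippocampal cluster of 461 cells, with a median of 1397 UMIs, was therefore still counted as astrocyte-like. Doublets were called with Scrublet (scanpy 1.11.5, 0.8% per 1000 barcodes) and kept. Members and lists were chosen with earlier results of these data known. From each list the counts and at most 4 genes with the largest absolute log2 ratios were named. Genes with at least 10 UMIs were compared as CPM of summed counts with 5 CPM added (Python 3.11.15, numpy 2.4.6, scipy 1.17.1, pandas 2.3.3), and no test was run with 1 biological sample per preparation. The comparison was also run on simulated data, whose outcome is not given here and is not used for any result above. The alternatives were other filters, scalings and class rules, and leaving out each library. The 9-week preparation was not analysed here, and the gene lists of both preparations share 27514 identifiers.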

Additional observations from a re-analysis of the deposited data

Results flagged for a closer look

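*Prox1* stood out because microglia-like and astrocyte-like cells came in opposite order in the preparations. In the cortex the microglia-like level minus the astrocyte-like level was 15.3 CPM on average and positive in every library, and in the hippocampus it was -12.4 CPM and negative in every library. The difference between the preparations was not tested. Without called doublets the astrocyte-like level was 23.3 CPM in the hippocampus and 6.06 CPM in the cortex. Without the *Tnc*-led and *Cenpa*-led clusters, an alternative chosen after seeing the data, the hippocampal astrocyte-like level was 17.0 CPM (16.7, 16.8 and 17.6 CPM in the 3 libraries), which overlapped with the 17.2, 17.7 and 16.1 CPM of microglia-like cells, so the opposite order was no longer seen.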

How the results depend on the processing

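Of 819 ratios of the 9 genes under an alternative, 600 moved by less than the spread between libraries, 217 moved by more and 2 changed direction. Those were *Tbr1* between the immature and mature classes with classes from markers of single cells (log2 ratio 0.67 ± 2.66) and *Eomes* between the cycling and immature classes with the 9 genes kept in the clustering (-0.069 ± 0.28). Both changed values were smaller than their SD over the libraries, so the new direction was not settled. Of 548 ratios called in the main setting 527 were called in the same direction and 21 were not. Another 13 ratios, not called in the main setting, were called under an alternative. The cause was not tested. The count of genes higher in the cycling class was 0 with the genes kept in the clustering, 1 with a mean over cells, 1 with the *Tac2*-led cluster counted as immature neuron-like and 1 to 2 with each library left out. The count of genes lower in it, 3 in the main setting, was 7 with the genes kept in the clustering, 6 with the *Tac2*-led cluster moved, 4 with classes from single cells and 2 without called doublets, with a mean over cells, without mitochondrial and ribosomal protein genes or without hippocampal library 1. The count of genes higher than in the mature class, 8 otherwise, was 6 with classes from single cells. The count of genes that differed between the astrocyte-like cells of the preparations was 2 without called doublets, 2 with classes from single cells, 0 without the *Tnc*-led and *Cenpa*-led clusters and 4 to 5 with each library left out. With 1 CPM added it was 6, as *Eomes* and *Neurod2* were also called. At a mitochondrial limit of 10% it was 4, with *Sox11* called in place of *Sox4*. Between the OPC-like cells it was 0 to 1 with each library left out, and at a mitochondrial limit of 10% that comparison was not run, since 0 cortical cells were left. The count of pairs found together more often than the product was 2 with classes from single cells and 1 without thinning. The alternatives on the *Tac2*-led, *Tnc*-led, *Cenpa*-led, *Pdgfra*-led and *Dlx6os1*-led clusters were chosen after seeing the data. Between cortex and hippocampus no paired analysis was possible because no test was run and the replicate numbers name technical libraries of separate preparations. Classes of the same preparation share its 3 libraries, and the SD of their log2 ratios was taken over ratios formed within each library. The SD between the preparations also matched libraries by number, although that match is arbitrary, so the spread used there is only a rough guide.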
